A study of Mus musculus with 10 samples.

Results

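The 38 genes described here encode nuclear receptors, a family of transcription factors that share a DNA-binding domain, and most of which are switched by small lipid-soluble ligands. They were chosen by gene symbol, as the family without its activity-induced Nr4a genes. Of the 38, 35 had a row in the table analysed, among 17945 named rows, and 27 passed the filter for testing, which asked for 10 or more normalized counts in 5 or more libraries. Rarb, Esrrb and Pgr were not analysed here. The libraries came from pancreatic islets of C57BL/6 mice aged 18 weeks, 5 labelled floxed control and 5 labelled knockout. Both groups carried floxed alleles of Grk5, a kinase gene acting on activated G protein-coupled receptors, and the knockouts also carried Pdx1-CreER, a Cre recombinase fused to an estrogen receptor ligand-binding domain. In adult islets the Pdx1 promoter is active mainly in β cells, and cells in which it is silent would keep the gene. Neither the inducing drug nor the sex of the animals was found in the labels. Nothing says that the libraries came from separate animals, so the p-values speak only of the spread among these 10 libraries, which may be technical.

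Nuclear receptors are usually grouped by ligand and partner. Steroid receptors act mainly as pairs of the same protein, whereas the receptors for thyroid hormone, retinoic acid, vitamin D, fatty acids, oxysterols and bile acids pair with a retinoid X receptor (RXR) on copies of the hexamer AGGTCA. In islets, HNF4A is known for its part in β-cell function, since inherited loss of it causes a form of diabetes in the young, and REV-ERB and ROR receptors form an arm of the circadian clock. Without ligand, several of these receptors hold corepressors, which are exchanged for coactivators when ligand binds.

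The libraries held between 5534000 and 7358000 normalized counts. If the commonest low value of a library stands for 1 read, that is about 2072863 reads in knockout 1, the shallowest by this estimate, and 10951875 in knockout 3, and 1 read is worth 0.527 to 3.55 normalized counts. All 10 β-cell markers, Ins1 and Ins2 among them, were above 0 in every library. Grk5 itself averaged 242 ± 112 over controls against 161 ± 74.9 over knockouts (SD, n = 5 each). Its groups overlapped, so it did not separate the labels (adjusted p = 0.955 by limma). In bulk islets, fewer cells of a type and less RNA per cell cannot be told apart. The words control and knockout are used as the labels give them.

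None of the 26 receptors tested other than Esr1 passed an adjusted p of 0.05 by limma, where the share called among all 11711 genes was 0.00%. Esr1 is left out of the counts in this paragraph, because its values were known when it was singled out. By the exact permutation test over libraries, adjusted over all genes, 0 passed. That 0 carries no information, because the smallest p this test can give, 0.00794, passes only if very many genes share it. At an unadjusted p under 0.05 there were 0 higher receptors, where 2.36% of all genes were higher, and 0 lower, where 2.66% of all genes were lower (5.01% in either direction). No receptor had groups that did not overlap, against 0.862% of all genes. Of the 26, 15 had a log2 fold change above 0 in the knockouts and 11 below, with a median of 0.06 (all genes, 47.6% above 0 and a median of -0.03). The 95% limits of all 26 included 0.

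Receptors that pair with RXR bind copies of AGGTCA, and the members' own promoters were searched for it. RefSeq promoter windows on GRCm38.p6 were found for 35 of the 38 members, 56 windows in all, and the 250 bases before each start were searched on both strands for AGGTCA. The hexamer was in 10 of the 56 member windows (17.9%) and in 14.0% of all 32851 windows. Pairs of it in the same direction with 1 to 5 bases between (AGGTCANAGGTCA to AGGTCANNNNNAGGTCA), each of which also counts as the hexamer, were in 0 member windows and in at most 11 of all windows. The E-box CACGTG, bound by the clock proteins that drive the REV-ERB genes, was in 5 member windows (8.93%, against 6.02% of all windows). These belonged to Esr2, Nr0b2, Nr1i3, Rara and Thrb, and the REV-ERB genes Nr1d1 and Nr1d2 were not among them. A match to the hexamer or the E-box is not a measured binding site, and no match says only that these letters are not in the window. Of the members with the hexamer, Nr6a1, Rarg and Thrb had a log2 difference below 0, Nr5a2 and Pparg above 0, and Rxrg was not tested. The hexamers, in capitals on either strand, are shown for the other 3 members, which, like Nr5a2 and Pparg, had a log2 difference above 0. Rxra, the common partner, had 2 of them facing away from each other at 1 of its listed starts (chr2:27709175-27709279, plus strand). Nr1h4, the bile acid receptor gene, and Nr1d2 had 1 each (chr10:89506837-89506902 and chr14:18239148-18239213, both minus strand).
Rxra: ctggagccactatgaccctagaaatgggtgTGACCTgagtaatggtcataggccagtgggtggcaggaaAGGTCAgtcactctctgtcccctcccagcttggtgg
Nr1h4: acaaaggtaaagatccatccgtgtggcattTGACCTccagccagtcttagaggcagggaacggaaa
Nr1d2: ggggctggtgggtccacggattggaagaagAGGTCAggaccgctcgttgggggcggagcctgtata

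Levels of different receptors were compared as normalized counts per kilobase of annotated exon. Leaving Esr1 aside, the order in controls ran Nr1d1, Vdr, Nr3c1, Nr1d2, Hnf4a, Nr1h2, Thra and Rora, and the lowest of those tested was Nr5a2. The clock repressor gene Nr1d1 averaged 305 ± 88.0 per kilobase over controls and 350 ± 197 over knockouts (SD, n = 5 each), above the vitamin D receptor gene Vdr (125 ± 30.3 and 169 ± 39.4) in 9 of 10 libraries. Vdr lay above the glucocorticoid receptor gene Nr3c1 in 3 of 5 controls and 4 of 5 knockouts. Nr3c1 lay above Nr1d2 in 4 of 5 controls and in 1 of 5 knockouts, so the order of these genes does not hold over all 10 libraries. Hnf4a was above Nr1h2 in 2 of 5 controls and 3 of 5 knockouts. Nr1h2 was above Thra in 4 of 5 controls and in 0 of 5 knockouts. Rora was above the next gene in control order, the mineralocorticoid receptor gene Nr3c2, in all 10 libraries (57.9 ± 11.3 against 25.6 ± 24.0 per kilobase, SD, n = 10). Rora and Nr3c2 were nearly equal in control 4 (81.2 against 80.0) and knockout 5 (58.1 against 57.8). Genes further down the control order also passed Rora in single libraries, such as Esrrg in knockout 1 (95.7 against 54.4).

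**Figure D1:**
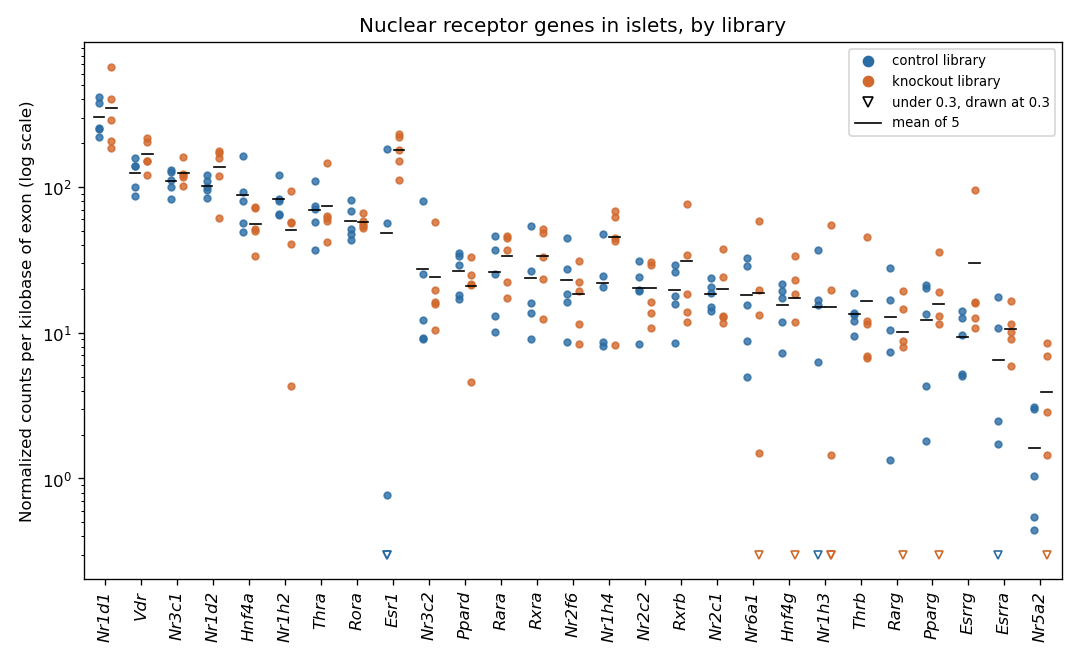
Normalized counts per kilobase of exon (log axis) for the 27 receptors tested, ordered by their control mean, with 1 point per library, blue for 5 controls and orange for 5 knockouts, and a black line at each group's mean. Open triangles at 0.3 stand for values under 0.3. Nr1d1 is highest, at 305 per kilobase in controls, and for Esr1 3 of the 5 controls sit far below all knockouts.

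Thyroid hormone receptors bind the hormone T3. Controls 1 to 5 held 341.1, 324.7, 264.3, 170.7 and 507.2 normalized counts of Thra, and knockouts 1 to 5 held 673.8, 281.4, 290.9, 194.8 and 268.5, the order and unit used for all values by library below. Knockout 1 was the highest of the 10, and the other 4 knockouts lay within the control range. Thra was above Thrb per kilobase in 9 of 10 libraries, all but knockout 4, where Thrb was 334.8. The mean log2 difference, knockout minus control, was 0.04 ± 0.37 (SE) for Thra and -0.06 ± 0.54 for Thrb. Both directions turned with single libraries left out. Exons of Thra and Nr1d1 share 263 bases on opposite strands, and the counting's use of strand is not stated, so reads there cannot be assigned to one of them.

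Among retinoic acid receptors, Rara (26.3 ± 15.4 per kilobase in controls, SD, n = 5) was above Rarg (12.8 ± 10.2) in 8 of 10 libraries, all but controls 2 and 5. Rarg, known best from skin and cartilage, was 31.2, 119.5, 5.7, 44.4 and 71.9 in controls and 0.0, 34.1, 61.9, 37.1 and 82.5 in knockouts. The groups overlapped over nearly their whole range. Rara differed by 0.43 ± 0.51 on the log2 scale, and Rarg by -0.31 ± 0.79. Both directions turned without controls 2 and 5, to -0.16 for Rara and 0.38 for Rarg.

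The RXR genes Rxra and Rxrb were expressed at like levels, 28.7 ± 17.1 and 25.3 ± 19.7 per kilobase (SD, n = 10), with Rxra higher in 5 of 10 libraries. Rxrg was below both in every library, at most 16.8 normalized counts, and was not tested. Rxra averaged 130 ± 98.4 over controls and 184 ± 89.8 over knockouts (SD, n = 5 each). Its log2 difference was 0.58 ± 0.52 (SE, adjusted p = 0.960 by limma). It ran from 0.33 without control 5 to 0.93 without control 2, and was 0.22 with the level of acinar markers as a covariate. Rxrb was at 0.40 ± 0.58, and at 0.0043 without knockout 1, which held 303.2 of it against at most 136.3 in any other library. Without knockout 3 Rxrb was at 0.63.

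The PPARs sense fatty acids. Ppard was 220.3, 129.0, 254.7, 135.9 and 264.0 in controls and 34.7, 187.1, 162.9, 159.1 and 248.0 in knockouts. Apart from the low knockout 1, the knockouts lay within the control range. The log2 difference was -0.48 ± 0.48 (SE), or -0.04 without knockout 1 and -0.69 without knockout 5. Ppard was above Pparg per kilobase in 8 of 10 libraries and above Ppara in all 10. Ppara, the form of liver and other fat-burning tissues, was at 0 in 7 libraries. Pparg, best known from fat cells and macrophages, was at 0.17 ± 0.79 and was highest in knockout 4 (105.2).

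REV-ERB receptors repress, and ROR receptors activate, the same clock genes. Nr1d1 was 1170.6, 1288.5, 684.4, 771.2 and 781.5 in controls and 2060.7, 1230.9, 570.4, 639.2 and 886.8 in knockouts. Knockout 1 was the highest library and knockout 3 the lowest, so the knockouts spanned more than the whole control range. Nr1d2, its paralog, was 545.5, 650.4, 516.7, 595.2 and 456.2 in controls and 857.2, 932.4, 646.9, 330.3 and 954.2 in knockouts. Knockouts 1, 2 and 5 lay above every control and knockout 4 below every control. The log2 differences were 0.08 ± 0.31 (SE) for Nr1d1, with a direction that turned without knockout 1 (-0.19), and 0.34 ± 0.29 for Nr1d2. Nr1d2 had 95% limits of -0.26 to 0.94, and was at 0.23 without knockout 5 and 0.60 without knockout 4. The labels do not give the hour at which islets were taken. Rora, which varied little, was 675.3, 899.9, 564.9, 1061.0 and 619.4 in controls and 710.6, 680.2, 729.4, 864.2 and 759.6 in knockouts. All 5 knockouts lay inside the control range, and the difference was 0.01 ± 0.23, with a direction that turns with upper-quartile scaling (-0.0086).

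The vitamin D receptor gene Vdr, on chromosome 15 from 97854425 to 97910630 (GENCODE M21 on GRCm38, as for the positions below), was 793.2, 487.5, 563.8, 792.6 and 891.3 in controls and 1147.6, 857.9, 688.4, 1220.4 and 855.7 in knockouts. Knockouts 1 and 4 lay above every control, and the other 3 lay between control 3 and control 5. Its log2 difference was 0.44 ± 0.24 (SE), with 95% limits of -0.07 to 0.94 and an adjusted p of 0.942 by limma. Vdr had a positive difference under every alternative run, from 0.31 without control 2 to 0.54 without knockout 3.

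Nr1h4 encodes FXR, the bile acid receptor of liver and gut, on chromosome 10 from 89454234 to 89533585. It was 18.8, 20.0, 47.5, 109.0 and 56.4 in controls and 158.7, 98.3, 143.7, 18.9 and 103.8 in knockouts. Knockouts 1 and 3 lay above every control, while knockout 4 was as low as control 1. The log2 difference was 0.94 ± 0.66 (SE, adjusted p = 0.942 by limma), 0.71 without control 1 and 1.40 without knockout 4. Nr0b2, which encodes the repressor SHP and is a classical FXR target in liver, was at 0 in 8 libraries and at most 8.6. The xenobiotic receptor gene Nr1i3 was at 0 in 7.

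The oxysterol receptors LXRβ and LXRα are encoded by Nr1h2 (chromosome 7, 44549616 to 44553951) and Nr1h3. Nr1h2 was 279.7, 405.5, 217.5, 267.7 and 217.7 in controls and 316.8, 194.1, 136.3, 14.5 and 191.6 in knockouts. Knockouts 2 to 5 all lay below the lowest control, and knockout 1 lay above 4 of the 5 controls. The log2 difference was -1.06 ± 0.56 (SE), with 95% limits of -2.24 to 0.13 and an adjusted p of 0.942 by limma. Without knockout 4 it was -0.42, and without knockout 1 it was -1.38. Nr1h3, the form of macrophages and liver, was 92.6, 0.0, 39.0, 42.0 and 15.8 in controls and 0.0, 0.0, 49.3, 137.4 and 3.6 in knockouts, so the 0s fell in both groups. It differed by -0.57 ± 0.90, from -1.44 without controls 2 and 5 to 0.18 with the acinar covariate. Nr1h2 was above Nr1h3 per kilobase in every library but knockout 4. That library also had the highest sum of 10 immune marker genes, 1241.8 where the other knockouts held 608.7 or more and the controls 495.1 to 924.6. Of those markers, 7 were tested, 3 higher and 4 lower, with Csf1r, Cd68 and Ptprc at 0 in at least 1 library each. Their part in the Nr1h3 and Pparg values was not tested.

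**Figure D2:**
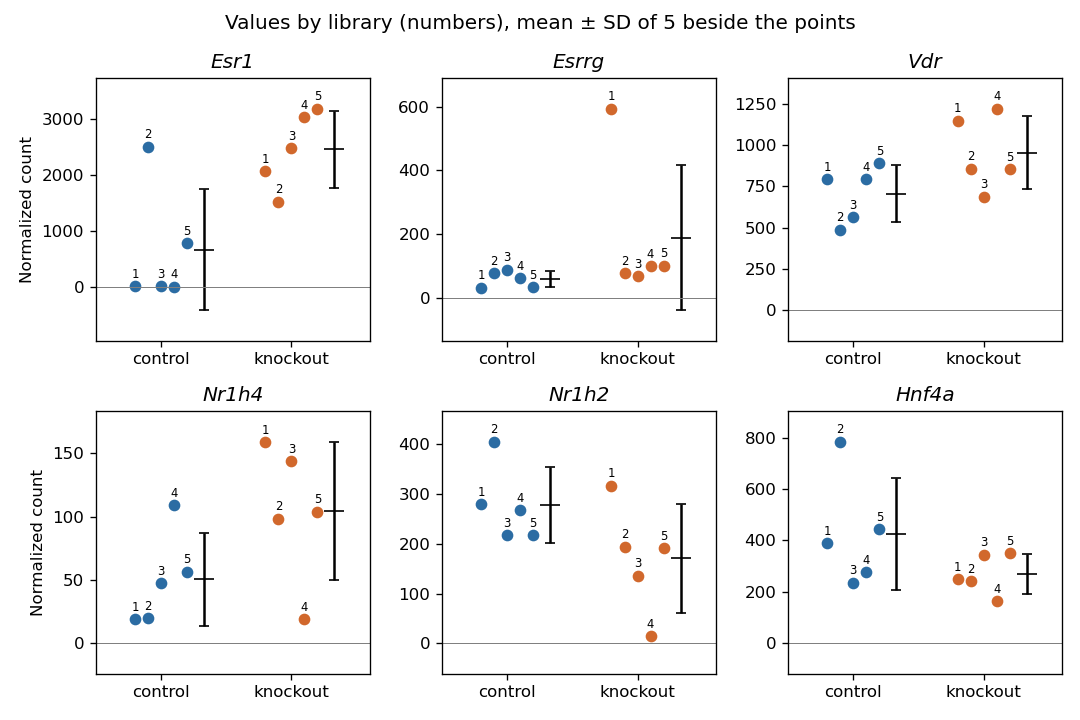
Normalized counts of 6 receptors in each library, blue for controls and orange for knockouts, with the library's number above each point and the mean ± SD of 5 at the right of each group. Esr1 is near 0 in controls 1, 3 and 4, the Esrrg mean of the knockouts is carried by knockout 1 (594.3), and Nr1h2 is lowest in knockout 4 (14.5).

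HNF4A is a liver, gut and islet regulator that binds as a pair with itself. Hnf4a, on chromosome 2 from 163506808 to 163572910, was 389.5, 783.9, 236.3, 275.3 and 444.3 in controls and 249.4, 241.2, 345.0, 162.5 and 350.7 in knockouts. Control 2 stood highest, and 4 of the 5 knockouts lay within the control range. The log2 difference was -0.57 ± 0.36 (SE, adjusted p = 0.942 by limma), and it was -0.32 without control 2 and -0.17 without controls 2 and 5. It was -0.74 without control 3 and -0.81 with the acinar covariate. All 10 β-cell markers also had a log2 difference below 0, as 52.4% of all genes did, with a median of -0.21 and 1 at an unadjusted p under 0.05 (2.66% of all genes). The summed level of the markers overlapped, at 960728.6 to 1183713.0 in controls and 970943.1 to 1283460.5 in knockouts. Their part in the Hnf4a value was not tested. Hnf4a was above Hnf4g per kilobase in 9 of 10 libraries, all but knockout 4. The other NR2 receptors tested lay close together in the groups: Nr2c1 and Nr2c2 differed by -0.02 each (SE 0.51 and 0.40), and Nr2f6 by -0.23 ± 0.61. Nr2c2 shares 30.7% of its exon bases with Mrps25 on the other strand, and Nr2f6 shares 54.4% with Ocel1, so their levels are uncertain. Nr2f1 was at 0 in all 5 controls and in 3 knockouts, and was 12.8 and 19.8 in knockouts 3 and 5. Nr2f2, a receptor of veins and stroma, was at most 38.6.

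Esr1, the estrogen receptor α gene, is described here by its values and not by a test, because it was singled out for its values in an earlier look at these data. The gene lies on chromosome 10 from 4611593 to 5005614. It was 2.0, 2495.0, 10.5, 0.0 and 773.5 in controls and 2057.8, 1516.7, 2467.7, 3028.4 and 3176.8 in knockouts. Control 2 lay among the knockouts, control 5 lay between, and the other 3 controls were near 0. Among knockouts Esr1 ranked 2 of the 35 receptors per kilobase (179 ± 50.3, SD, n = 5), behind Nr1d1. The values may include reads of the CreER transgene, and reads of the gene and of a transgene cannot be told apart here. The level per kilobase divides by all 13661 annotated exon bases of Esr1. That length would not apply to transgene reads, so the rank may not reflect expression of the receptor gene. The design gives CreER to the knockouts alone, and the source of the Esr1 reads in controls 2 and 5 was not tested. Of the other 26 receptors tested, 25 were also compared without them, all but Nr5a2, which no longer passed the filter. The median log2 difference of the 25 was then 0.05, against 0.04 for the same genes over all 10 libraries, and none of the 25 passed by limma. Esr2, encoding estrogen receptor β, was at 0 in 7 libraries, with its highest value, 47.7, in control 5. Of the estrogen receptor targets listed, 5 were tested, and 3 were higher and 2 lower.

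The glucocorticoid receptor gene Nr3c1 was among the steadiest, at 1012.0, 983.1, 768.0, 635.5 and 855.0 in controls and 899.6, 952.7, 786.2, 923.4 and 1228.7 in knockouts. The coefficient of variation over 10 libraries was 17.8%, the lowest of the 27 receptors tested. Its log2 difference was 0.17 ± 0.21 (SE), with 95% limits of -0.27 to 0.62, and it was 0.04 with the acinar covariate. Nr3c2, encoding the mineralocorticoid receptor, was below Nr3c1 per kilobase in every library. It varied more, from 58.9 to 518.2 in controls and from 67.5 to 374.2 in knockouts.

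Estrogen-related receptors are orphan receptors that drive genes of mitochondrial respiration, and ERRγ, encoded by Esrrg, is known for its part in β-cell maturation. Esrrg, on chromosome 1 from 187608791 to 188214885, was 31.4, 77.8, 87.5, 60.2 and 32.5 in controls and 594.3, 77.8, 66.8, 99.7 and 100.6 in knockouts. Knockouts 1, 4 and 5 lay above every control, and knockouts 2 and 3 lay within the control range. The log2 difference was 1.13 ± 0.61 (SE), with 95% limits of -0.15 to 2.41 and an adjusted p of 0.942 by limma. Without knockout 1 it was 0.59, and without knockout 3 it was 1.35. In the authors' deposited table Esrrg stands at 1.61 on the log2 scale, and its adjusted p, 0.528, is the smallest among the 31 members for which that table gives an adjusted p. Esrra, the widely expressed form, was 10.9, 47.4, 7.5, 0.0 and 77.5 in controls and 50.6, 40.0, 25.8, 44.1 and 72.3 in knockouts. The knockouts lay within the control range, with a difference of 1.03 ± 0.73. Over the alternatives Esrra ran from 0.50 with the acinar covariate to 1.98 without controls 2 and 5.

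Nr5a2 encodes LRH-1, which is abundant in acinar cells, the enzyme-making cells around islets. It was the lowest receptor tested, with means of 9.55 ± 7.75 over controls and 23.3 ± 21.4 over knockouts (SD, n = 5 each). The log2 difference was 0.61 ± 0.68 (SE). The 26 acinar markers summed to 24213.5 to 308960.4 in controls and 36309.3 to 97152.3 in knockouts. Of the 23 tested, 22 had a log2 difference below 0, as 52.4% of all genes did. Ptf1a, Rbpjl, Prss1 and Zg16 were at 0 in at least 1 library. With the level of the acinar markers as a covariate Nr5a2 was at 1.08. The part of acinar cells in the Nr5a2 value was not tested. The germ cell receptor gene Nr6a1 was 351.9, 168.3, 94.7, 310.4 and 53.5 in controls and 0.0, 636.1, 214.4, 16.1 and 142.8 in knockouts. The knockouts held the 2 lowest and the highest values, and the difference was -0.99 ± 1.04, or -1.72 without knockout 2 and -0.14 without knockout 1.

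**Figure D3:**
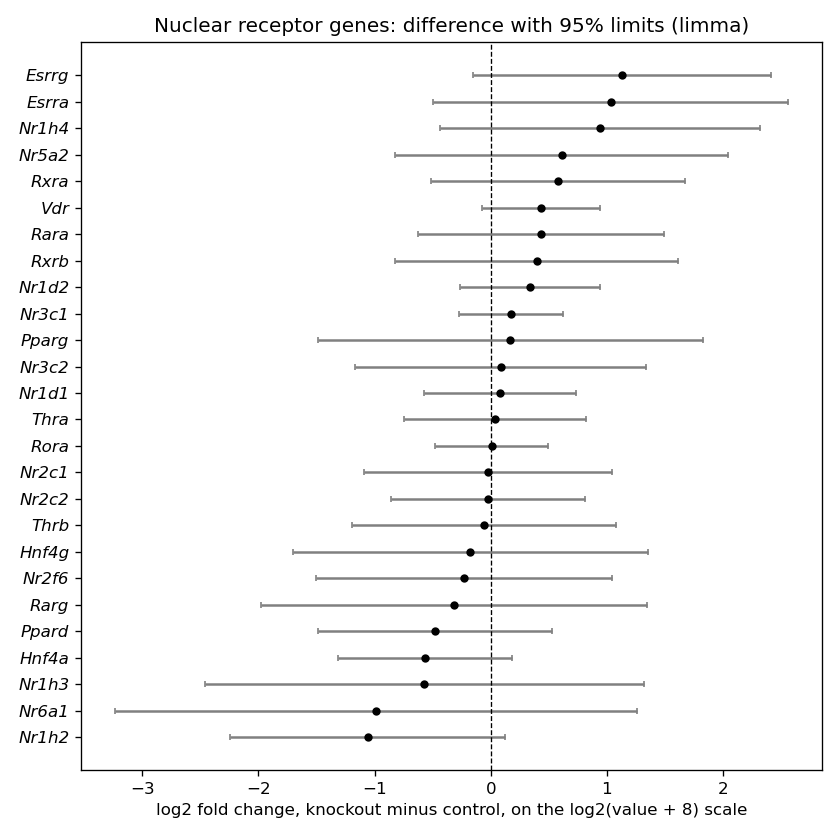
The log2 fold change of each of the 26 receptors tested other than Esr1, knockout minus control on the log2(value + 8) scale, with 95% limits by limma, ordered by size. The limits cross the dashed line at 0 for all 26, and Nr1h2 is lowest at -1.06.

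The other genes of nuclear receptor action were described by 12 lists, none of which had a member past an adjusted p of 0.05 by limma, where 0.00% of all genes passed. The chaperones that hold steroid receptors ready for ligand numbered 14, of which 13 were lower and 1 was higher, and their median was -0.38 (all genes, -0.03). At an unadjusted p under 0.05, 3 of the 14 were lower, where 2.66% of all genes were. Dnaja1, an Hsp40 co-chaperone gene, averaged 4361 ± 684 over controls against 3026 ± 599 over knockouts (SD, n = 5 each). Its log2 difference was -0.53 ± 0.16 (SE, adjusted p = 0.942 by limma). Hspa8 was 20520 ± 3669 against 15970 ± 2259, at -0.36 ± 0.12. Without controls 2 and 5 the list's median was -0.17. Earlier results of these data showed the lower heat shock genes, so the list is not independent evidence.

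Coactivator genes, tested in 21 of 22, were 8 higher and 13 lower (median -0.11), and the median was 0.15 without controls 2 and 5. Crebbp, an acetyltransferase gene, was at -0.72 ± 0.54 and Nsd1, a histone methyltransferase gene, at 0.41 ± 0.28. Corepressor genes were 5 higher and 10 lower (median -0.15), with Gps2, a subunit of the NCoR complex, at -0.58 ± 0.41. In neither list was there a gene at an unadjusted p under 0.05.

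Of the enzymes and carriers that supply or clear ligands, 10 of 28 could be tested, 2 higher and 8 lower. Aldh1a3, which makes retinoic acid, was 28.0, 12.1, 0.9, 80.4 and 9.2 in controls and 18.1, 88.6, 224.9, 158.5 and 77.5 in knockouts. Knockouts 2, 3 and 4 lay above every control. Its log2 difference was 1.95 ± 0.76 (SE, unadjusted p = 0.0200 and adjusted p = 0.942 by limma). Among 6 tested targets of retinoic acid and thyroid hormone, 2 were higher and 4 lower, with the malic enzyme gene Me1 at -0.84 ± 0.61.

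Targets of the oxysterol receptors, tested in 10 of 13, were 2 higher and 8 lower, with a median of -0.36. Lpcat3, a phospholipid-remodelling enzyme gene, was 290 ± 114 against 169 ± 95.5 (log2 difference -0.82 ± 0.42), and Apoe 888 ± 117 against 680 ± 240 (-0.45 ± 0.26). Abca1, the cholesterol exporter gene and a classical target, lay the other way, at 996 ± 186 against 1240 ± 146 (0.33 ± 0.20). None of these targets had an unadjusted p under 0.05. PPAR targets were 5 higher and 9 lower (median -0.10).

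Glucocorticoid receptor targets were 4 higher and 9 lower (median -0.12), and 4 of the 13 had an unadjusted p under 0.05, all lower, where 2.66% of all genes were lower and under 0.05. The phosphatase gene Dusp1 was 458 ± 85.7 against 241 ± 175 and the EGF receptor inhibitor gene Errfi1 1258 ± 462 against 694 ± 184, at -1.14 ± 0.39 and -0.81 ± 0.28. Both also respond within minutes to other stimuli, and earlier results of these data showed such genes lower. The source of the lower Dusp1 and Errfi1 values was not tested. Sgk1 and Cdkn1a lay higher, at 0.57 ± 0.37 and 0.68 ± 0.41. The coding gene of the receptor itself, Nr3c1, was at 0.17.

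Mitochondrial targets of the estrogen-related receptors were 11 higher and 3 lower, with a median of 0.20. Ndufs7, a complex I subunit gene, was at -0.99 ± 0.48. HNF4A targets were 5 higher and 4 lower. Slc2a2, which encodes the glucose transporter of β cells, averaged 2923 ± 299 against 2120 ± 514 (-0.49 ± 0.17) and is also among the 10 lower β-cell markers. Ttr, a thyroid hormone and retinol carrier made in alpha cells, was 7192 ± 1623 against 9555 ± 1863 (0.42 ± 0.16). Adjusted p was 0.942 by limma for both genes. Ttr is also among 8 alpha-cell markers, of which 4 were higher and 4 lower. At an unadjusted p under 0.05 by limma, 2 of them were higher, where 2.36% of all genes were. The summed alpha-cell markers overlapped, at 78116.3 to 108858.3 in controls and 69347.5 to 106411.1 in knockouts. REV-ERB and ROR targets were 4 higher and 4 lower (median -0.00), with Nampt at -0.87 ± 0.47.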

How the data were processed

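Islet RNA from 10 libraries, depleted of ribosomal RNA and prepared with a stranded random-primed kit per the labels' protocols, was analysed from the deposited table. STAR 2.4.0.1, HTSeq and DESeq2 are listed, with no role, in the submitters' processing notes, which leave the genome build and annotation unstated. The authors deposited normalized counts, a signal on a common scale and not whole reads: 22.6% to 33.6% of a library's values above 0 were whole multiples of its commonest low value, within 0.01 of a multiple. Depth is therefore an estimate, and 1 row without a gene name was left out (at most 0.0251% of a library's total). The deposited table also holds the authors' log2 fold changes, a test score and p-values.

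Values were taken as log2(value + 8), a scale that understates the change of low genes, for 11711 genes with a value of at least 10 in at least 5 libraries. Knockout and control libraries were set against each other by limma 3.58.1 (R 4.3.3), using a mean-variance trend, robust variance and Benjamini-Hochberg adjustment over all genes at 0.05, after a check on simulated data. In that check the fit called 5% of 100 genes changed 2-fold and 32% of 100 changed 4-fold. It also called 4 unchanged genes. A gene that did not pass may therefore still differ, even by a large amount. The exact 2-sided permutation test had 252 arrangements and a smallest p of 0.00794. After adjustment over 11711 genes such a p passes 0.05 only if very many genes share it. Tables were made in Python 3.11.15 with pandas 2.3.3 and drawn with matplotlib 3.10.9. Exon lengths and overlaps are from GENCODE M21 on GRCm38, and promoters from RefSeq on GRCm38.p6. Per-library values were given for the 6 members with the smallest p in each direction, Esr1 counted among those higher, and for the 8 highest per kilobase. From each list up to 2 genes per direction were named, from those with an unadjusted p under 0.2, and some are not reported here. Members and lists were chosen with earlier results of these data known. Alternatives were other pseudocounts (1 and 32), filters, scalings, variance estimates, weights, an acinar covariate and left-out libraries.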

Additional observations from a re-analysis of the deposited data

Results flagged for a closer look

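Within groups of 5 libraries, 54 sets of values of the receptors tested were searched for a single library far from the rest, by Dixon's gap over range with a critical value of 0.71. Chance alone gives about 1 in 20 for normally distributed values. The search used normalized counts without a log scale, so that share may not apply here. The search found 5 (9.26%), in 4 genes, where the same search over all genes tested found 10.7% of 23418 sets.

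Esrrg in knockout 1 was 594.3, with the next knockout at 100.6. Thra in knockout 1 was 673.8, with the next at 290.9. Thrb in knockout 4 was 334.8, with the next at 88.7. Nr3c2 stood out once in each group, at 518.2 in control 4 (next 165.0) and at 374.2 in knockout 5 (next 126.9). Knockouts 1 and 4 had the lowest estimated depths of the 10 libraries, about 2072863 and 2715703 reads, and whether depth has a part in these values was not tested.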

How the results depend on the processing

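Among 54 genes followed under the alternatives, 41 kept their direction under all 21 alternatives in which they could be tested, and so did 14 of the 27 receptors. The genes other than receptors were followed because their unadjusted p by limma was under 0.2, which favours a kept direction. Changed filters, variance estimates and the permutation test leave a gene's log2 difference as it was, so they could not turn it. The count of receptors past the adjusted threshold by limma was 0 in each, except 1 without controls 2 and 5, Esr1, whose values chose that alternative. Over all genes the count was 0, except 1 without controls 2 and 5, 1 for limma without trend and robust estimates, and 0 to 1 with single libraries left out. Directions turned, with the cause not tested, with the acinar covariate Thra (-0.12), Nr1d1 (-0.19) and Nr1h3 (0.18); with quality weights Rarg (0.29), Nr1d1 (-0.058), Rora (-0.019), Hnf4g (0.14), Nr2c2 (0.026) and Nr3c2 (-0.091); without controls 2 and 5 Rara (-0.16), Rarg (0.38), Hnf4g (0.053), Nr2c1 (0.12) and Nr3c2 (-0.42). Pparg turned with a pseudocount of 1 (-0.14), Nr2c1 with 32 (0.0002) and Rora with upper-quartile scaling (-0.0086). With single libraries left out, directions turned for Thra (-0.24 to 0.22), Thrb (-0.50 to 0.15), Rarg (-0.78 to 0.26), Pparg (-0.20 to 0.76), Nr1d1 (-0.19 to 0.27), Rora (-0.091 to 0.13), Hnf4g (-0.48 to 0.41), Nr2c1 (-0.27 to 0.12), Nr2c2 (-0.30 to 0.17), Nr2f6 (-0.48 to 0.031) and Nr3c2 (-0.28 to 0.59). No paired analysis was possible because the labels give no numbers shared between groups. At these depths a value of 10 is about 3 reads in the shallowest library, which limits the low receptors.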

Other observations

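Receptor pairs of like function were compared per kilobase within each library, a comparison set up after the values were seen. Of 16 pairs, each written with the form that had the higher mean first, knockout 4 went against the order in 5: Thrb over Thra, Pparg over Ppard, Nr1h3 over Nr1h2, Hnf4g over Hnf4a and Nr2c1 over Nr2c2. Control 5 did so in 4, knockout 3 in 0, and the other libraries in 1 or 2. Rxra with Rxrb and Nr2c2 with Nr2c1 had nearly equal means, so an order against the mean says little for them.

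Knockout 1 was the highest of the 10 libraries for 6 of the 27 receptors tested (22.2%), Thra, Nr1d1, Rxrb and Esrrg among them, and shared or held the lowest value for 7. Over all genes tested it was highest for 16.0% and lowest for 32.2%. It had 21 of the 35 receptors above 0, against 28 to 32 in the other libraries.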
